A study of Mus musculus with 2 samples.

Results

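The CREB factors and their coactivators are 10 genes, taken by name from the 21938 protein-coding genes of GENCODE M21 on mouse chromosomes 1 to 19, X and Y. Creb1, Crem and Atf1 encode the CREB family proper, Atf2 and Atf4 encode more distant relatives, Crtc1, Crtc2 and Crtc3 encode the CREB-regulated transcription coactivators, and Crebbp and Ep300 encode the acetyltransferases CBP and p300. All 10 were found. Each gene was described over its body and 10 kb to either side, and its promoter was taken as 1000 bp to either side of every annotated start site.

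CREB1, CREM and ATF1 bind as dimers, through a basic leucine zipper, to the cAMP response element (CRE), whose palindromic form reads TGACGTCA and whose core reads TGACG. Calcium and cAMP signals lead to phosphorylation of these factors, which then recruit CBP or p300, while dephosphorylated CRTC proteins enter the nucleus and bind the zipper. In the hippocampus this pathway is known for switching on genes after synaptic activity and for its part in lasting memory. ATF2 pairs with Jun proteins on CRE-like sites, and ATF4 is the effector of the integrated stress response.

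DNase-seq, in which DNase I cuts accessible chromatin and the cut ends are sequenced, was applied to hippocampal tissue of male mice of the strain B6CASTF1/J, a hybrid of C57BL/6 and CAST, at 14 days of age. There was 1 group with 2 biological replicates, and nothing was compared with it. Each label mentions 3 males and both carry the same donor identifier, so how far the animals of the replicates were separate is not known. The tissue is labelled as a layer of hippocampus without naming the layer. Values are the authors' value per peak, whose unit is not stated, and are given per replicate and as mean ± SD (n = 2). They describe and rank peaks within a list, and no test was made.

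Replicate 1 had 115072 peaks and replicate 2 had 95711, with median values of 0.594 and 0.734. The number of reads behind them is not known. The footprint lists, short stretches protected from cutting within open chromatin, held 285181 and 244137 entries with a median length of 9 bp. Of the marker genes used as a check of the tissue, 5 of 5 for neurons and 6 of 6 for hippocampal glutamatergic neurons had a promoter peak in both replicates, as did 2 of 3 for interneurons, 3 of 4 for astrocytes, 2 of 4 for the oligodendrocyte lineage, 1 of 4 for microglia, 1 of 3 for endothelium, 0 of 2 for choroid plexus, 0 of 2 for cerebellum and 1 of 2 for liver (Alb, at 0.156 and 0.220). Markers of several cell types were thus open, and fewer cells with an open site cannot be told apart from less cutting per cell.

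The CRE cores found in promoter footprints of the members, with 5 bp added to each side, are shown first. These cores are the letters that CREB factors bind. Because of the added bases, a core called footprinted may lie partly outside the footprint itself. With no bases added, 1 member rather than 3 had a core in a promoter footprint called shared, as defined below. The cores of Crem, and 3 more that were footprinted in replicate 2 only (1 at Creb1 and 2 at Atf4), are not printed. Each line holds 30 bases of the GRCm38 reference, 5′ to 3′ on the strand of the gene, with the match to TGACG on either strand in capitals. The reference is C57BL/6 sequence, and the CAST alleles were not read. Creb1 has 1 core footprinted in both replicates, downstream of its main start site at chr1:64532897-64532926 on the plus strand. Atf4 has 1 as well, at chr15:80255211-80255240 on the plus strand. Upstream of Crebbp lie a core footprinted in both replicates, at chr16:4214054-4214083 on the minus strand, and a core footprinted in replicate 1 only, at chr16:4214071-4214100. Crtc1 has a core footprinted in replicate 2 only, at chr8:70439432-70439461 on the minus strand. The last line is the palindromic CRE at the promoter of the neighbouring gene Trap1, within 10 kb of the 3′ end of Crebbp, at chr16:4077839-4077868.
Creb1, both replicates: gagtgttggtgagTGACGcggcggaggtgt
Atf4, both replicates: gacaccggaaattCGTCAacgagcgatccc
Crebbp, both replicates: ccgcggggggggTGACGtacaagcgtgccc
Crebbp, replicate 1: ggccgtgcgtggTGACGccgcggggggggt
Crtc1, replicate 2: aggacctgagccTGACGcgggccgcgcggg
Trap1 promoter near Crebbp: gtcgcgcgccaTGACGTCActgagccgccc

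The next lines give the 200 bases upstream of the first start site for both acetyltransferase genes and the 3 CRTC genes, with the bases that lay inside footprints of both replicates in capitals. They show how the protected bases differ between these genes within this window only, and bases downstream of the first start site are not covered. In Crebbp, 65 of these bases were footprinted in both replicates (chr16:4213998-4214197, minus strand), and in Ep300, 45 (chr15:81585151-81585350, plus strand). In Crtc1 the number was 39 (chr8:70439580-70439779, minus strand), and in Crtc2 (chr3:90253963-90254162, plus strand) and Crtc3 (chr7:80688878-80689077, minus strand) it was 0.
Crebbp: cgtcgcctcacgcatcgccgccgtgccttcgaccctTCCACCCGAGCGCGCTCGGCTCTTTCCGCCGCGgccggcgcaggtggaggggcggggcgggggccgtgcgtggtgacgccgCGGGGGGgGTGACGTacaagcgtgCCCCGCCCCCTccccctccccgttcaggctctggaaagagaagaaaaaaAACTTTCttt
Ep300: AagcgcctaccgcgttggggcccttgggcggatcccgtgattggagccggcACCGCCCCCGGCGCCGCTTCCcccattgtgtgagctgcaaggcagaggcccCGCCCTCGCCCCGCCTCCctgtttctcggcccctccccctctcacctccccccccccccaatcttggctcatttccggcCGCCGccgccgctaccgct
Crtc1: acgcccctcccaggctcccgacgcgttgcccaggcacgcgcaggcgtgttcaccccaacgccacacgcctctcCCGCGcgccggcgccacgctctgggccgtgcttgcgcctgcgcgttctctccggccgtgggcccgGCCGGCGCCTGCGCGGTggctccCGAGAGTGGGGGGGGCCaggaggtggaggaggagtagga
Crtc2: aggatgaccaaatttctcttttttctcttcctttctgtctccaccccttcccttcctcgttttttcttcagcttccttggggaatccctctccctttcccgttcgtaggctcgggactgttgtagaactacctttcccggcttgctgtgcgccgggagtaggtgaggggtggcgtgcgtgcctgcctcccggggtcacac
Crtc3: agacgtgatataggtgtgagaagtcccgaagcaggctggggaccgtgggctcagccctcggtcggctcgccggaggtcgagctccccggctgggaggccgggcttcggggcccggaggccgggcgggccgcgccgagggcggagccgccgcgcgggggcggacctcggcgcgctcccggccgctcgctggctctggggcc

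Outside promoters, the 3 highest open sites that both replicates shared were 1 inside Crtc3 and 2 beside Atf4. The first and the third are printed, and the second, 5.68 kb downstream of the Atf4 start, is not, because it overlaps an exon of Rps19bp1. The Crtc3 site is intronic, 28.08 kb downstream of the main start site (chr7:80660701-80660900, shown on the minus strand). The printed Atf4 site lies past the gene, 11.28 kb downstream of its start (chr15:80266381-80266540, plus strand). Capitals again mark bases footprinted in both replicates, 38 of 200 at Crtc3 and 28 of 160 at Atf4.
Crtc3 intron: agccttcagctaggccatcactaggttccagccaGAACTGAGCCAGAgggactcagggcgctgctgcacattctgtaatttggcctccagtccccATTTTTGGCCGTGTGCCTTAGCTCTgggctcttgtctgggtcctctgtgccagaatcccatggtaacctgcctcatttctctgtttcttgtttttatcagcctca
Atf4 downstream: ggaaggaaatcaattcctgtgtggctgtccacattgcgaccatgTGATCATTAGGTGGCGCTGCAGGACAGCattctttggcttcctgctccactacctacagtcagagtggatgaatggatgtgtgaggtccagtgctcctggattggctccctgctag

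All 10 members had a promoter peak in both replicates. Among all 21938 protein-coding genes the share was 64.3%, and among the 12626 with a CpG-rich start site it was 94.0%. CpG-rich here means an observed over expected CpG ratio of at least 0.6 in 500 bp around a start site. Every member is of that kind, with ratios from 0.769 to 1.10, so the count of open members is near that of CpG-rich genes at large. The height of the highest promoter peak separated the members further. It was above the median of open coding genes (2.54 in replicate 1 and 3.19 in replicate 2) in both replicates for 9 of 10 members, where 47.2% of open coding genes were. The median over members of the mean value was 4.64, against 2.87 over the 14116 open coding genes. Open coding genes include some without a CpG-rich start site. No comparison with CpG-rich genes alone is given for height, nor below for footprints and motifs.

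**Figure D1:**
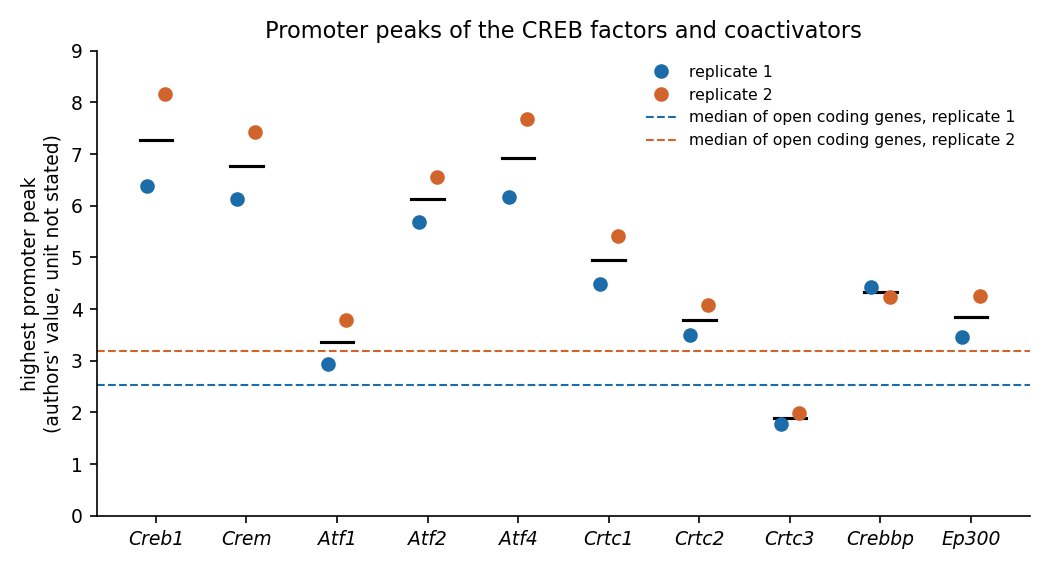
Highest promoter peak of each member (vertical axis, authors' value, unit not stated) in replicate 1 (blue) and replicate 2 (orange); black bars are the means of the 2 replicates and dashed lines the medians of the coding genes open in both. Creb1, Crem, Atf2 and Atf4 stand highest, from 5.69 to 8.16, and Crtc3 is the member below both medians, at 1.78 and 1.99.

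Among the CREB factors, Creb1 and Crem had far higher promoter peaks than Atf1. Creb1, the constitutive activator of the family (chromosome 1, 64532645 to 64604548), had values of 6.39 and 8.16, a mean of 7.27 ± 1.26, which ranked 360 among the 14116 open coding genes. Crem, which encodes both activators and repressors, had 6.12 and 7.43 (6.78 ± 0.922), rank 578. Atf1, which pairs with CREB1 on CREs (chromosome 15, 100227819 to 100261244), had 2.93 and 3.78 (3.36 ± 0.6), rank 5817. The values of Atf1 did not overlap those of the other two and lay close to the middle of the coding genes with a promoter peak in each replicate, at percentiles 59.4 and 60.2.

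The other ATF genes were near the top of the scale. Atf4 (chromosome 15, 80255184 to 80257541), whose protein is made chiefly when stress slows general translation, had values of 6.16 and 7.69 (6.92 ± 1.08), rank 495. Atf2 (chromosome 2, 73816509 to 73892639), a target of stress-activated kinases, had 5.69 and 6.55 (6.12 ± 0.610), rank 1015. The ranges of Creb1, Atf4, Crem and Atf2 each overlapped the next, although their order was the same in both replicates. These ranges include a shift between the libraries, with a median ratio of replicate 2 to replicate 1 of 1.25 over open coding genes. Their overlap therefore does not measure the spread of single genes.

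The 3 CRTC genes differed from one another in a graded way. Crtc1, the form known as the main CRTC of neurons (chromosome 8, 70382355 to 70439579), had values of 4.49 and 5.41 (4.95 ± 0.647). Crtc2, best known for control of glucose production in liver (chromosome 3, 90254163 to 90264125), had 3.50 and 4.08 (3.79 ± 0.407). Crtc3 (chromosome 7, 80586627 to 80688877) had 1.78 and 1.99 (1.89 ± 0.147), rank 9677. The ranges of these 3 genes did not overlap, and Crtc3 was the lowest member in both replicates.

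The acetyltransferase genes fell between. Crebbp (chromosome 16, 4081328 to 4213997) had 4.43 and 4.24 (4.34 ± 0.137), and Ep300 (chromosome 15, 81585351 to 81652077) had 3.46 and 4.25 (3.85 ± 0.558). Their ranges just met, and their order turned between the replicates. Crebbp was also the exception to the shift between libraries: the other 9 members had the higher value in replicate 2, as did 92.4% of open coding genes. The ratio of replicate 2 to replicate 1 was 0.956 for Crebbp, 1.21 in the median of the members and 1.25 in that of open coding genes. Crebbp fell from percentile 83.3 in replicate 1 to 67.3 in replicate 2.

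The width of open promoter did not follow the order of peak height. Crtc3, with the lowest peak, had the most promoter sequence under peaks, 1884 bp in replicate 1 and 1340 bp in replicate 2, at percentiles 97.6 and 92.9 of open coding genes. Most of this lay in an 880 bp site over the main start and an 800 bp site in the first part of the gene, with means of 1.79 and 1.78, and a weaker site of 389 bp lay at an internal start. Crem, with the third highest peak, was wide as well, with 1123 and 1140 bp at percentiles 87.5 and 88.6. Creb1 covered 780 and 700 bp, and Crebbp 1040 and 1180 bp. Atf4, with one of the highest peaks, covered 320 and 533 bp, and Crtc1 covered 280 and 320 bp, where the medians of open coding genes were 500 and 485 bp. Width is summed over all start sites of a gene, which favours genes with many.

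Of the 23 sites at the members' own promoters, 4 had a peak in 1 replicate only. At Atf2 and Ep300 the list of significant cut rate covered the site in both replicates, and at Crem and Atf4 it did not. The Atf2 site over the start had a value of 4.45 in replicate 2 and no peak in replicate 1. All 380 bp of it were listed in both replicates, with lowest log10 false discovery rates of -26.2 and -34.4. The Ep300 site 0.23 kb downstream of the start had a value of 1.41 in replicate 1 and no peak in replicate 2, and its 300 bp were listed in both, with -14.9 and -18.9. The Crem site at -1.11 kb (0.205 in replicate 1) and the Atf4 site at 1.26 kb (0.571 in replicate 2) were much weaker, and each had 0 bp listed in the replicate without the peak.

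Merging start-site windows that touch gave 38 windows over the 10 genes. Of these, 13 held a peak in both replicates and 25 in neither. The 25 without a peak also held 0 bp of significant cut rate in either replicate, which does not show that their chromatin was closed. Every member was open at its main start, and 3 members had a second open window. Crem lies on chromosome 18 (3266048 to 3337748, minus strand) and had 6 windows, of which the main one and an internal one 55.85 kb downstream were open. The internal window covers 6 start sites and had values of 2.27 and 2.02. Background knowledge places in this gene an intronic cAMP-inducible promoter, which gives the short repressor ICER. The 4 windows between them held no peak in either replicate.

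The other second windows were weaker. In Crtc3 a window of 2 start sites 59.21 kb downstream had values of 0.771 and 1.04, and no transcript of it is annotated as coding. In Crebbp a window 118.61 kb downstream had 0.686 and 0.505, and its peak lay over an exon. Creb1 had 2 internal windows without a peak, Atf2 had 3, and Ep300 had 6, the most of any member.

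The sites of both replicates were then merged and sorted by position. The members' own promoters held 23 sites, of which 19 (82.6%) were shared, against 67.7% of all 36057 promoter sites, and promoters of other genes within the flanks held 9, of which 6 were shared. Distal sites, those outside every promoter, numbered 47, of which 21 (44.7%) were shared, against 48.6% of all 93200 distal sites. At least 1 shared distal site was found at 7 of 10 members, where 53.3% of all coding genes had one. The distal sites were therefore shared about as often as elsewhere, and what varied was how they were spread over the members.

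**Figure D2:**
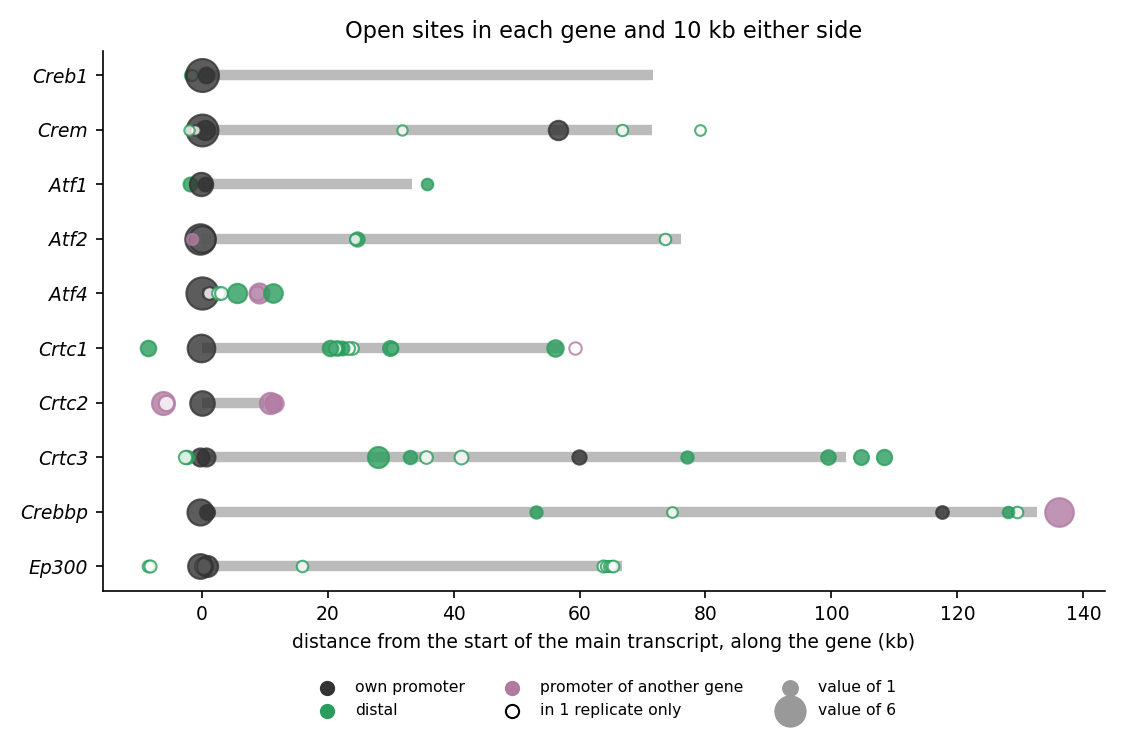
Open sites of each member along the gene (horizontal axis, kb from the start of the main transcript; grey bars, gene bodies), with area growing with the authors' value and open circles for sites in 1 replicate only. Crtc3 has 7 shared distal sites and Crtc1 has 6, while Crem, Crtc2 and Ep300 have 0.

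Shared distal sites were concentrated at Crtc3, with 7, and Crtc1, with 6. The strongest over all members was the Crtc3 intron site printed above, with values of 2.56 and 2.75 (2.65 ± 0.133), at percentiles 92.8 and 89.6 of all peaks of the replicates. Its mean was above that of the Crtc3 promoter itself (1.89), and the ranges did not overlap. The next at Crtc3 lay past its 3′ end, 108.38 kb from the start, with 1.07 and 1.20. At Crtc1, 4 shared intronic sites stood between 20.4 and 29.88 kb from the start, with means from 0.836 to 1.17. The highest at Crtc1 lay over an exon at 56.09 kb, with 1.40 and 1.39, followed by a site in the upstream flank, at -8.45 kb, with 1.04 and 1.31.

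Atf4 is the shortest member and had 2 strong shared distal sites in its downstream flank. The site at 5.68 kb, inside the gene Rps19bp1, had 2.03 and 2.24, and the one at 11.28 kb had 1.86 and 2.03. With 8.95 shared distal sites per 100 kb it was the densest member, followed by Crtc1 with 7.77 and Crtc3 with 5.73. The median was 1.20 over members and 1.84 over open coding genes. Since the Atf4 sites flank the promoter of Rps19bp1, which encodes a ribosomal protein partner and had 2.16 and 2.49, neither gene can be named as theirs from these data.

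The remaining members had few and weak shared distal sites. Atf1 had one 1.84 kb upstream with 0.806 and 0.872, and one 35.73 kb downstream with 0.311 and 0.481. Atf2 had an intronic site at 24.63 kb with 0.721 and 1.10. Crebbp had 2, with means of 0.523 and 0.383, and Creb1 had 1, 1.79 kb upstream, with 0.361 and 0.359. Crem had 4 distal sites and Ep300 had 8, and 0 of them were shared. Crtc2 had no distal site: its flanks held the promoters of Slc39a1 and Dennd4b, with highest values of 2.90 and 3.62 and of 2.45 and 2.94. Trap1, a mitochondrial chaperone gene in the flank of Crebbp, had 4.56 and 6.15, above Crebbp itself in both replicates.

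Footprints were then counted at the promoters. A footprint of replicate 1 was called shared where a single footprint of replicate 2 covered at least 50% of its length. A footprint covered that far only by several shorter ones together was not called shared. The members had 121 in replicate 1 and 136 in replicate 2, of which 61 were shared, or 64 when counted from replicate 2. At least 1 was shared at 9 of 10 members, where 90.4% of open coding genes had one. The median was 6 shared footprints per member against 3 over open coding genes. Like width, footprints and the motifs below are counted over all start sites of a gene, which favours genes with many.

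Atf4 led the members with 12 shared footprints out of 14 in replicate 1, at percentile 98.7 of open coding genes. Crem and Ep300 had 9 each, Atf2 had 8 and Crebbp had 7. Creb1 had 5 of 11, and Atf1 had 4 of 10. Counted from replicate 2, Atf4 again led with 12, but the order below it changed. Crebbp then had 11, Ep300 had 10, Atf2 and Creb1 had 7 each, Crem had 6 and Atf1 had 3. The CRTC genes differed among themselves. Crtc3 had the most footprints of any member, 18 in replicate 1 and 21 in replicate 2, of which 5 were shared. Crtc1 had 5 and 8, of which 2 were shared, and Crtc2 had 5 and 3, of which 0 were shared from replicate 1 and 1 from replicate 2. The 5 of Crtc3 and the 1 of Crtc2 lie outside the 200 upstream bases printed above.

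**Figure D3:**
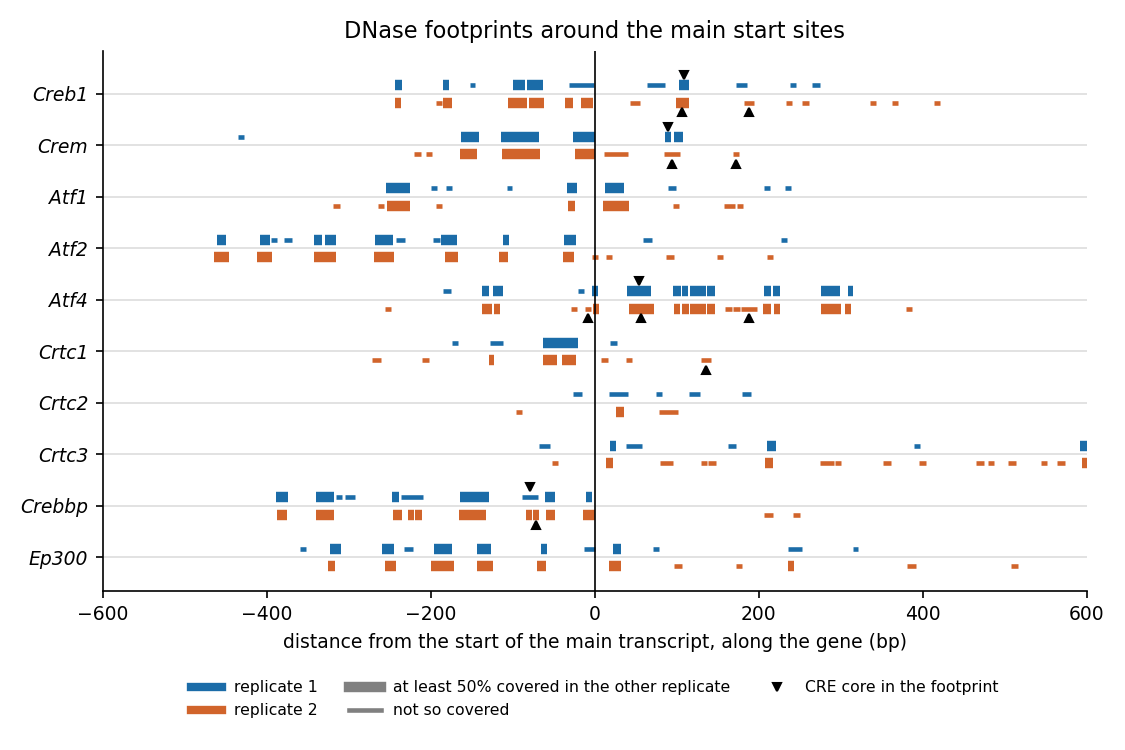
Footprints within 600 bp of the start of the main transcript (horizontal axis, bp along the gene) in replicate 1 (blue, upper row) and replicate 2 (orange, lower row). Thick bars are at least 50% covered by a single footprint of the other replicate, and triangles mark footprints that hold the CRE core within 5 bp. Atf4 has the densest run of thick bars, 12 in all at its promoter, and Crtc2 has 0 thick bars in replicate 1.

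The CRE core was searched for in each footprint with 5 bp added to each side, on both strands. It was in a shared promoter footprint at 3 of 10 members, Creb1, Crem and Atf4, where 14.8% of open coding genes had one. Counted from replicate 2 the number was again 3, but the genes were Creb1, Atf4 and Crebbp, against 14.4%. Counting any footprint, replicate 1 gave 4 members (21.9% of genes) and replicate 2 gave 5 (21.5%), with Crtc1 as the fifth. Creb1 and Atf4 are thus the members with the core under both ways of counting. The Creb1 core lies 103 bp and the Atf4 core 42 bp downstream of the main start.

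The palindromic CRE TGACGTCA, which contains the core, was in a shared promoter footprint at 0 of 10 members and at 3.35% of open coding genes. The palindrome that was footprinted in both replicates within the flanks of the members was that of Trap1, printed above. In RefSeq's promoters of 300 bp on GRCm38.p6, which run from 250 bp before to 50 bp after a start, 8 of the 10 members have an entry. The palindrome was in 0 of those 8 and in 1.79% of all 32851, and the core was in 2 of 8 (Atf1 and Atf4) and in 20.8% of all. The entries of Crebbp and Ep300 are at starts downstream of their main ones. The Crebbp cores printed above therefore lie outside its entry. The Atf1 core was in no footprint of either replicate. A match describes letters and does not show which protein was bound, and a missing match says only that these letters are not in the window.

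Other motifs were searched in the same way. The Sp/Klf box GGGCGG was in a shared promoter footprint at 8 of 10 members, against 45.1% of open coding genes, and the exceptions were Crtc1 and Crtc2. It can be read, on the opposite strand, in the capitals of the Crebbp and Ep300 sequences. The NF-Y box CCAAT was footprinted at Atf2 and Atf4 (13.0% of genes), and the YY1 core AAGATGGC at Atf1 (1.86%). The NRF1 core GCATGCGC (4.99%), the ETS motif CCGGAAG (6.33%), the E-box CACGTG (2.89%), the AP-1 site TGANTCA (0.255%), the CARE site TGATGCAA (0.0354%), which ATF4 binds with C/EBP partners, and the ZNF143 core ACTACAA (0.496%) were in shared promoter footprints of 0 members.

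The wider pathway was described with 5 lists of 79 genes in all, of which 74 had a promoter peak in both replicates. Among all coding genes the share was 64.3%, and among those with a CpG-rich start site it was 94.0%. The count over the lists is thus near that of CpG-rich genes at large, and each list below is to be read beside these shares. Of the CREB/ATF relatives, 13 of 17 were open in both, led by Crebl2 (7.91 ± 1.23), Atf7 (7.88 ± 0.791) and Atf5 (6.99 ± 0.648). The 4 without a peak in either were Creb3l3, best known from liver, Creb3l4, and the lymphoid factors Batf and Batf3. Crebl2 and Atf7 stood above Creb1 in each replicate, though their ranges, which include the shift between the libraries, overlapped with it.

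Upstream of CREB, 22 of 22 cyclase, kinase and calmodulin genes were open in both replicates, where 64.3% of all coding genes were. The highest were the calmodulin gene Calm3 (11.04 ± 1.67), Rps6ka5, which encodes the CREB kinase MSK1 (6.16 ± 0.897), and Calm2 (5.58 ± 1.29). All 11 regulators of CRTC and CREB were open. The highest was Ppp3ca (8.95 ± 1.60), the catalytic subunit of calcineurin, which dephosphorylates CRTC proteins, followed by the kinase genes Sik1 (5.02 ± 1.14) and Sik3 (4.997 ± 1.26), whose products hold CRTCs in the cytoplasm. All 10 other acetyltransferase and coactivator genes were open, led by Kat6b (7.94 ± 1.78), Ncoa2 (7.17 ± 1.06) and Kat5 (6.38 ± 0.962), each above Crebbp and Ep300 in both replicates.

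Of the CRE target genes, 18 of 19 were open in both replicates, led by the clock gene Per1 (5.82 ± 0.740), the cyclin gene Ccna2 (5.28 ± 1.10) and Rgs2 (5.17 ± 1.44). Sst, the somatostatin gene of interneurons in which the CRE was first defined, had a promoter peak in replicate 2 only, at 0.326. Here the palindromic CRE was footprinted in both replicates at 4 of 19 genes, Dusp1, Vgf, Gem and Ccna2, and the core at 8 of 19. Among open coding genes the shares were 3.35% for the palindrome and 14.8% for the core. The list was chosen as known CRE targets, so its counts are not independent of the motif searched. Among the relatives the palindrome was footprinted at Creb5, 1 of 17, and among the regulators at Sik1, 1 of 11. It was at 0 of 22 upstream genes and 0 of 10 acetyltransferases. The medians of the mean value were 4.20 for relatives, 3.61 upstream, 3.06 for regulators, 3.46 for other acetyltransferases and 2.60 for targets, each below the 4.64 of the members and, except for targets, above the 2.87 of open coding genes.

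**Figure D4:**
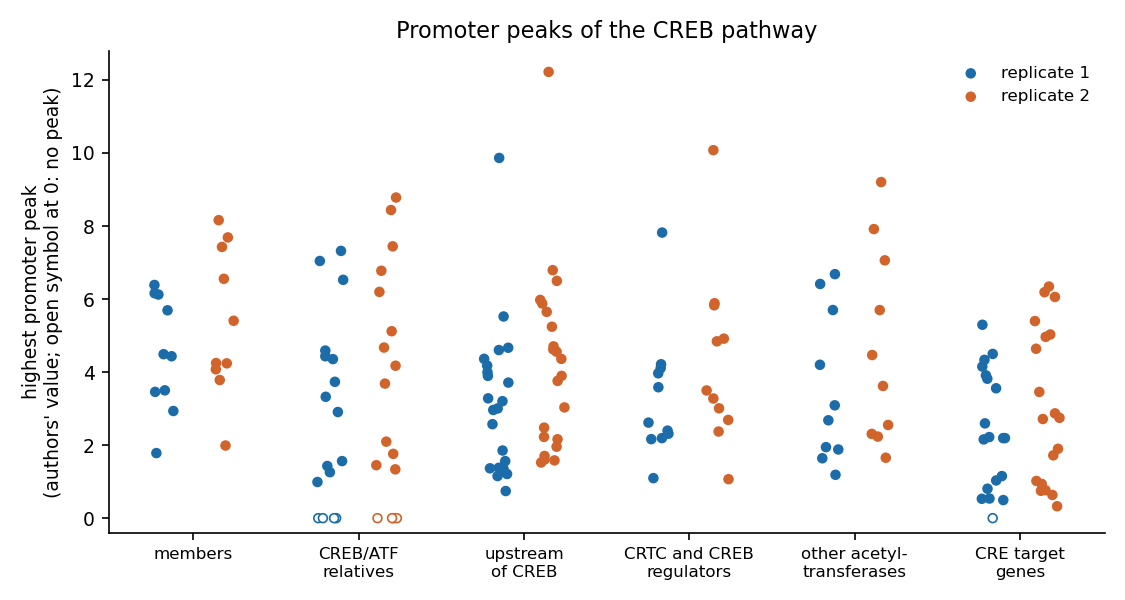
Highest promoter peak (vertical axis, authors' value, unit not stated) of the members and of the genes of each pathway list in replicate 1 (blue) and replicate 2 (orange); open symbols at 0 are genes with no promoter peak in that replicate. The members lie from 1.78 to 8.16, and 4 relatives have no peak in either replicate.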

How the data were processed

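DNase-seq of 1 group with 2 biological replicates was used. Per the deposited file descriptions, each file comes from 1 library aligned to mm10 (GRCm38), and calls were made on single replicates, not on pooled reads. No aligner, peak caller or footprint caller is named (not given in the sources used here). The authors deposited a signal per peak, never negative, with no stated unit or scaling, so values were ranked within a list. The authors deposited p-value columns as false discovery rates, 0.01 on every footprint and under 0.05 in the cut-rate lists. The longer of each replicate's 2 peak lists was used.

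Genes and start sites were those of GENCODE M21, all transcripts. A gene's value was its highest peak within 1000 bp of any start site. Overlapping peaks of both replicates (by at least 1 bp) were merged into sites. Footprints were searched for 11 motifs with 5 bp added to each side. The calculations used Python 3.11.15 with pandas 2.3.3 and numpy 2.4.6, and the overlap and motif code was tested on simulated data. The members, lists and motifs were chosen with earlier results of these data known. All members are named. Each pathway list names up to 3 genes with the highest mean among those open in both replicates, up to 2 with a peak in neither in list order, and every gene open in 1 replicate; Batf and Batf3, the intronic site cluster of Crtc1, and the genes with a footprinted palindromic CRE, were named after their values were seen. Distal sites are named by the 2 highest shared means per member. Sites of 1 gene share its cells and libraries and are not replicates.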

Additional observations from a re-analysis of the deposited data

How the results depend on the processing

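All 10 members kept a promoter peak in both replicates under narrower and wider promoter windows, the shorter peak list, peaks at or above their list's median, coding or GENCODE basic start sites (the basic set added after seeing the data), and in each replicate alone. Their median value ran from 4.46 to 4.83 when either replicate was left out, and 70 to 75 pathway genes were open. Shared distal sites numbered 21, falling to 12 in gene bodies alone and rising to 34 with 50 kb flanks. Leaving out either replicate removes the demand for sharing and gave 34 distal sites each way, and 121 to 136 promoter footprints against 61. A CRE core was in a shared footprint at 3 members, at 1 with no bases added to the footprint, at 0 for the palindrome alone, at 5 with any footprint of either replicate, and at 4 to 5 without a replicate. No paired analysis was possible because there is 1 group. With 2 replicates an SD is imprecise, and it includes the shift between the libraries. With read depth unknown, an absent peak is not shown to be closed chromatin.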

Other observations

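Distal sites found in replicate 2 only lay over exons more often than other distal sites, and Ep300 carries the clearest case among the members. Of its 8 distal sites, 6 were in replicate 2 only and all 6 lay over exons, 5 of them between 63.66 and 65.31 kb from the start, with values from 0.326 to 0.473. Around all members, 7 of 13 sites of replicate 2 alone, 1 of 13 of replicate 1 alone and 3 of 21 shared distal sites lay over exons of the member itself. Exons of neighbouring genes were left out of these counts, such as the Rps19bp1 exon under the shared Atf4 site at 5.68 kb. Across the genome the shares over exons were 10.5%, 5.81% and 7.40%, which are not strictly comparable with the counts around the members. The cause was not tested.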
